A study of Homo sapiens with 6 samples.

Results

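The genes described here are MYC and 40 nucleolar factors that make ribosomes, 41 of the 29571 genes in the deposited table. They were picked by gene symbol, with no measured value in the rule, though with earlier results of these data known. All 41 symbols were found. The cells were DB, an established human B-lymphoma line of germinal centre origin. The 2 groups were labelled DB_ZHX2 and DB_ZHX2_Mut4, called ZHX2 cells and Mut4 cells here, and 3 poly(A) RNA-seq libraries were labelled in each. ZHX2 encodes a homeobox protein with zinc fingers that acts mainly as a transcriptional repressor. The labels do not say what Mut4 alters, whether or how either form was introduced or whether a group is a single clone, and no group of parental DB cells was analysed here. The design text asks which signaling pathways separate the 2 groups.

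The libraries limit every comparison below. Within each group the 3 deposited columns were constant multiples of one another for all 41 genes, within a relative tolerance of 1e-06. In Mut4 cells columns 2 and 3 were 1.05 and 1.21 times column 1, and in ZHX2 cells 1.33 and 0.897 times. Each group therefore counted as 1 sample (n = 1), no test between the groups could be made, and the spread of the columns is no replicate error. Because the constants are fixed, the columns of the groups fail to overlap exactly where mean FPKM differs by more than 1.33-fold (lower in Mut4) or 1.35-fold (higher in Mut4), so overlap restates the fold and is no agreement between replicates. Column sums ran from 258080 to 383426 FPKM (fragment density per gene, normalized for transcript length and library size), and read depth is unknown. The B-cell label was borne out by the markers: all 10 B-cell genes looked at were measured, led by CD79B at 249.2 FPKM in Mut4 against 194.9 FPKM in ZHX2 cells. No T-cell, erythroid or fibroblast marker reached 1 FPKM in 3 columns, and CD3G was listed at 0 throughout. All 4 epithelial markers did, at 2.12 to 5.002 FPKM, summing to 13.9 FPKM in Mut4 against 12.5 FPKM in ZHX2 cells, and of the myeloid markers LYZ did. Their part in the results was not tested. ZHX2 itself stood at 14.9 FPKM in Mut4 against 18.03 FPKM in ZHX2 cells, and the table does not separate an introduced form from the cells' own gene.

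Ribosomes are made in the nucleolus. RNA polymerase I transcribes a long precursor that carries 18S, 5.8S and 28S rRNA, and small nucleolar ribonucleoproteins (snoRNPs) guide its methylation and pseudouridylation. Large assemblies of factors fold and cut the precursor into the small and large subunits. MYC, a transcription factor that pairs with MAX and binds the E-box DNA element, is known to drive many of these genes, and MYC activity is a recurrent feature of aggressive B-cell lymphomas.

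Across the set, with the 3 columns of each group averaged, MYC mRNA was higher in Mut4 cells, whereas most of the ribosome factors were slightly lower. Levels were compared as log2(FPKM + 1) of Mut4 minus that of ZHX2, called the log2 ratio. Folds of a gene or record between the groups are on this scale, while ratios between genes within a profile are of FPKM itself. MYC had a log2 ratio of 0.26. The 40 other genes had a median of −0.16, against 0.02 for the 12643 genes measured. Of the 41 genes, 33 lay below the median of all genes (80.5%, or 32 genes with PPAN summed with its readthrough), as 50% of all genes do by construction. Below 0 lay 30 of the 41 (73.2%), against 46.2% of all genes. Without ZHX2 column 2, 19 of the 41 lay below 0, and their median was 0.02 against 0.17 for all genes. These are bulk samples, so fewer cells with an mRNA and less of it per cell cannot be told apart. The differences were small. None of the 41 was 1.5-fold apart in either direction, a size that 2.56% of all genes reached on the lower side and 2.54% on the higher side. At 1.2-fold, 8 of the 41 (19.5%) were lower in Mut4 cells, against 13.0% of all genes, and 0 were higher, against 16.4%. The 8 were 7 when PPAN, whose reads are shared, was summed with its readthrough. They were 3 without ZHX2 column 2, 21 without ZHX2 column 3 and 17 without Mut4 column 3, while genes 1.2-fold higher were 6 without ZHX2 column 2. Measured from the median of all genes, 10 (24.4%) were at least 1.2-fold below it, against 14.9% of all genes, and 0 were that far above it, against 14.4%. None was 1.5-fold below or above that median, against 2.82% and 2.27%. The authors' deposited table marked 0 of the 41 as significant, against 2.03% of all genes. Its unadjusted p was under 0.05 for 5 of them (12.2%), below the share among all genes, 16.1%. These 5 were PPAN, RRP9, WDR43, WDR75 and RRS1, with q-values from 0.0896 to 0.257 in the authors' deposited table.

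**Figure D1:**
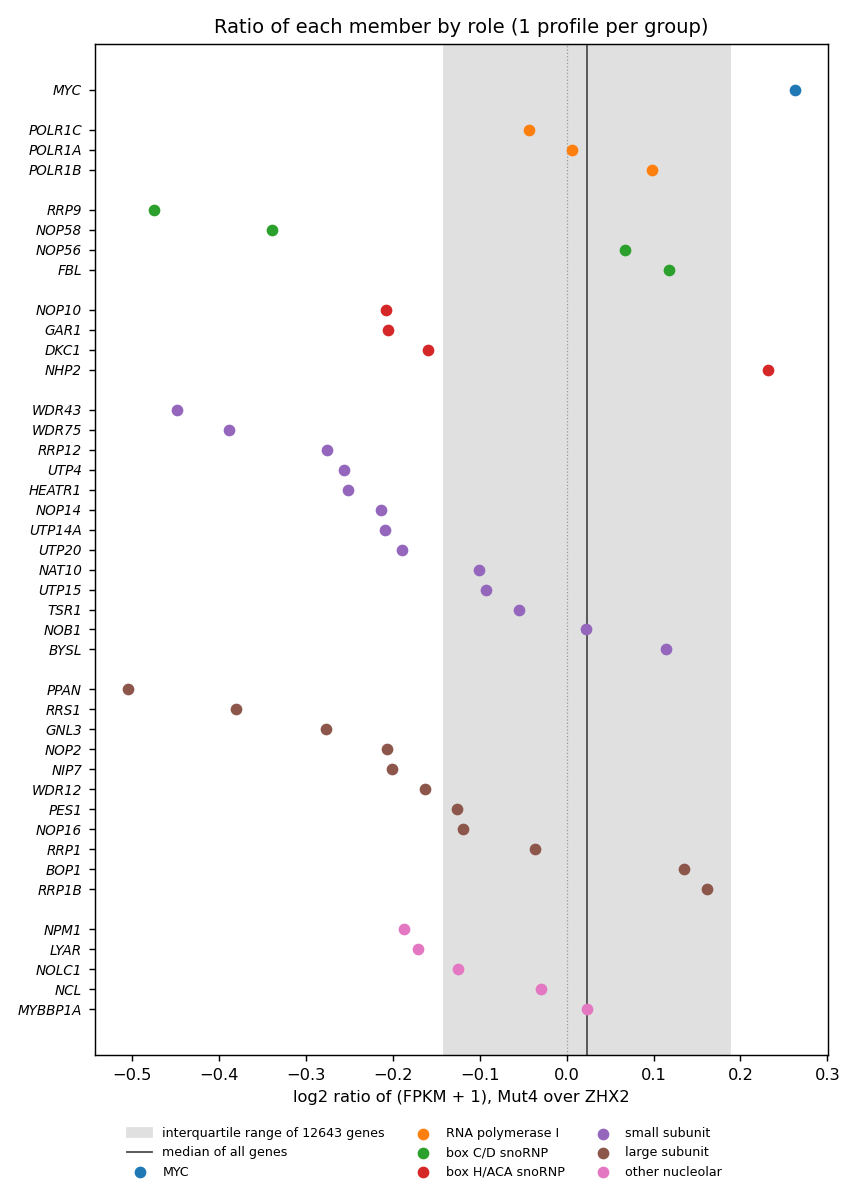
Log2 ratio of (FPKM + 1), Mut4 over ZHX2 cells, for each of the 41 genes (points, coloured by role), with the median (line, 0.02) and interquartile range (grey band, −0.14 to 0.19) of 12643 genes. MYC and NHP2 are the points right of the band, and most genes of the small and large subunits lie to the left of the median line.

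Since MYC acts through E-boxes, the promoters of the set were searched for the palindromic core CACGTG, which reads the same on both strands. The RefSeq promoter table (build GRCh38.p14, 250 bases before to 50 after each start) held 34 of the 41 genes, without BOP1, MYC, NOLC1, NOP58, RRP12, RRP1B and RRS1. The motif was present in 16 of the 34 (47.1%), against 13.1% of 8866 measured genes with an entry. In 14 of the 16 it lay within 50 bases of the start. The 3 members with the lowest and the 3 with the highest log2 ratio among those holding the motif are shown with 12 bases on each side, 5′ to 3′ on the gene's strand and the motif in capitals, so that the core and its flanks can be compared:
RRP9: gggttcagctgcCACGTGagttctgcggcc
WDR43: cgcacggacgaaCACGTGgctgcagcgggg
GNL3: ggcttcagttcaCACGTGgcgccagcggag
MYBBP1A: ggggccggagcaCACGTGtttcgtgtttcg
BYSL: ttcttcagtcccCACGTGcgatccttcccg
FBL: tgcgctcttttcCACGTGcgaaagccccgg
These windows lie at chr3:51941892-51941921 (minus strand), chr2:28894658-28894687 (plus), chr3:52686026-52686055 (plus), chr17:4555340-4555369 (minus), chr6:41921515-41921544 (plus) and chr19:39846356-39846385 (minus), in the order printed. Counted from the first transcribed base as 1, with no base 0, the motif starts at −5, 4, 7, 28, 29 and 7. The 16 genes with the motif had a median log2 ratio of −0.21 and the 18 without it −0.07. The shares below the median of all genes were close, 14 of 16 with the motif and 15 of 18 without. The 18 include PPAN by its own record alone, at −0.50, against 0.25 when summed with its readthrough. With and without the motif, the medians over measured genes with an entry were −0.01 and 0.02. Genes with the core thus lay on both sides, from RRP9 at −0.48 to FBL at 0.12, and the motif alone says nothing of MYC binding in these cells.

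MYC (chromosome 8, 127735434 to 127741434, GRCh38) was listed at 34.8, 36.6 and 42.03 FPKM in the Mut4 columns and at 29.1, 38.8 and 26.1 FPKM in the ZHX2 columns. The groups overlapped, since ZHX2 column 2 exceeded Mut4 columns 1 and 2. Mean levels were 37.8 FPKM in Mut4 against 31.4 FPKM in ZHX2 cells. With the pseudocount of 1 FPKM added to each, MYC was just under 1.2-fold higher in Mut4 (1.199-fold). Of 12643 genes, 83.5% had a lower log2 ratio than MYC. Its partner MAX was on the other side, at 7.97 FPKM in Mut4 against 11.4 FPKM in ZHX2 cells, 1.38-fold lower in Mut4. Within a profile the column constants cancel: MYC was 4.74 times MAX in Mut4 and 2.75 times MAX in ZHX2 cells, a ratio 1.72-fold higher in Mut4.

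The rest of the MYC network was mixed. Of 12 network genes, 10 were measured, with a median log2 ratio of −0.09. Of these, 4 (40%) were lower by at least 1.2-fold in Mut4 cells, against 13.0% of all genes, and 1 (10%) was higher, against 16.4%. Besides MAX, MYCL, a paralog of MYC, was scarce, at 0.754 FPKM in Mut4 against 1.36 FPKM in ZHX2 cells. MYCL is 1 of the 4, but it reached 1 FPKM in the ZHX2 columns only. It thus passed the filter through the group where it was higher, and its direction is not independent of the filter. MXD1 and MXI1, MAX-binding repressors, were 1.29-fold and 1.22-fold lower. MXD3, another MAX-binding repressor, was 1.27-fold higher (5.07 against 3.79 FPKM), and MXD4, of the same family, had a log2 ratio of 0.12. MYCN was listed at 0 in both groups.

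RNA polymerase I genes stood close to the median of all genes. POLR1A, the largest catalytic subunit, was listed at 3.79, 3.99 and 4.58 FPKM in the Mut4 columns and at 3.81, 5.07 and 3.42 FPKM in the ZHX2 columns. POLR1B, the other catalytic subunit, had 9.39, 9.88 and 11.3 FPKM in Mut4 and 8.79, 11.7 and 7.88 FPKM in ZHX2. POLR1C, which polymerases I and III share, had 7.11, 7.48 and 8.58 FPKM in Mut4 and 7.42, 9.89 and 6.66 FPKM in ZHX2. The columns overlapped for each of the 3, and the log2 ratios were 0.0060, 0.10 and −0.04. Part of the POLR1C exons overlap XPO5 and YIPF3 on the opposite strand, and no source used here says whether the counting used strand. Of 13 other genes of the polymerase I machinery, all measured, 9 lay below the median of all genes, for a median of −0.11. At least 1.2-fold lower in Mut4 cells were 2 (15.4%), against 13.0% of all genes. RRN3, which brings the polymerase to its promoter, was lower in Mut4 cells by 1.29-fold (13.2 against 17.3 FPKM). TAF1A, of the promoter selectivity factor, was 1.27-fold lower. POLR1E and UBTF, a polymerase subunit and an rDNA-binding factor, were at the upper end, at 0.22 and 0.20.

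The box C/D snoRNP, which methylates rRNA ribose, split between its members. FBL (fibrillarin), the methyltransferase, had the highest level of the 41 genes. It was listed at 158.3, 166.6 and 191.1 FPKM in the Mut4 columns and at 147.1, 196.2 and 132.1 FPKM in the ZHX2 columns. NOP56, a scaffold protein of the particle, had 52.5, 55.2 and 63.3 FPKM in Mut4 and 50.5, 67.3 and 45.3 FPKM in ZHX2. The columns of both overlapped, with log2 ratios of 0.12 and 0.07. NOP58, the paralogous scaffold that sits opposite NOP56, had 52.1, 54.8 and 62.9 FPKM in Mut4 and 66.7, 88.95 and 59.9 FPKM in ZHX2. It was 1.27-fold lower in Mut4 cells (log2 ratio −0.34), though Mut4 column 3 exceeded ZHX2 column 3. RRP9, the protein specific to the U3 snoRNP, had 6.97, 7.34 and 8.42 FPKM in Mut4 and 10.1, 13.5 and 9.0998 FPKM in ZHX2. Its columns did not overlap, and it was 1.39-fold lower in Mut4 cells. Within a profile NOP58 was 0.993 times NOP56 in Mut4 and 1.32 times in ZHX2 cells, whereas NOP56 was 0.331 and 0.343 times FBL.

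The box H/ACA snoRNP, which makes pseudouridine, had 1 member apart from the other 3. NHP2, a core RNA-binding protein, was listed at 29.6, 31.1 and 35.7 FPKM in the Mut4 columns and at 25.3, 33.7 and 22.7 FPKM in the ZHX2 columns. NOP10, the smallest core protein, had 24.2, 25.5 and 29.3 FPKM in Mut4 and 28.4, 37.9 and 25.5 FPKM in ZHX2. The columns overlapped for each, but NHP2 was 1.17-fold higher in Mut4 cells and NOP10 1.16-fold lower. GAR1, a core protein needed for catalysis, and DKC1 (dyskerin), the pseudouridine synthase, lay with NOP10, at log2 ratios of −0.21 and −0.16. Mean levels of GAR1 were 12.2 FPKM in Mut4 against 14.2 FPKM in ZHX2 cells, and those of DKC1 21.8 and 24.4 FPKM. Within a profile NHP2 was 1.48 times DKC1 in Mut4 and 1.11 times in ZHX2 cells. NOP10 was 1.21 and 1.25 times DKC1 and GAR1 0.561 and 0.582 times, so these pairs differed between the groups by 1.04-fold or less. Exons of NHP2 overlap RMND5B on the opposite strand, a gene at 6.23 FPKM in Mut4 against 4.82 FPKM in ZHX2 cells, and its part in the NHP2 value was not tested.

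Most small subunit factors lay below the median of all genes, by small differences. Of 13, 12 lay below it, with a median log2 ratio of −0.21, and 3 were lower by at least 1.2-fold in Mut4 cells, against 13.0% of all genes. Without ZHX2 column 2 the median was −0.043. The lowest were in UtpA, the subcomplex of the small subunit processome that binds the nascent precursor first. WDR43, of UtpA, was listed at 24.3, 25.6 and 29.3 FPKM in the Mut4 columns and at 33.8, 45.02 and 30.3 FPKM in the ZHX2 columns. WDR43 was 1.36-fold lower in Mut4 cells, and its columns did not overlap. WDR75, also of UtpA, had 17.55, 18.5 and 21.2 FPKM in Mut4 and 23.5, 31.3 and 21.1 FPKM in ZHX2, and was 1.31-fold lower with its columns barely overlapping. UTP4 and HEATR1, of UtpA too, were each 1.19-fold lower, at 14.4 against 17.3 FPKM and 15.04 against 18.1 FPKM. HEATR1 was 1.05 times UTP4 in Mut4 and 1.04 times in ZHX2 cells. UTP15, the last of the 5 UtpA genes in the set and the lowest in level of the 41, had 2.58 FPKM in Mut4 against 2.82 FPKM in ZHX2 cells. The UtpA genes had a median log2 ratio of −0.26. HEATR1 shares 2095 exon bases with LGALS8 on the opposite strand, which stood at 1.81 FPKM in Mut4 against 3.53 FPKM in ZHX2 cells, and its part in the HEATR1 value was not tested. UTP15 likewise overlaps ANKRA2.

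The remaining small subunit factors had smaller differences than WDR43 and WDR75, though RRP12 had a lower log2 ratio than UTP4, HEATR1 and UTP15. RRP12, needed for export and maturation of the pre-40S particle, was 1.21-fold lower (4.51 against 5.67 FPKM). NOP14, UTP14A and UTP20, all of the processome, had log2 ratios of −0.21, −0.21 and −0.19. NAT10, which acetylates cytidines of 18S rRNA, had a log2 ratio of −0.10, and TSR1, a late assembly factor, −0.06. NOB1, the endonuclease that frees the 3′ end of 18S rRNA, stood at 60.05 FPKM in Mut4 against 59.1 FPKM in ZHX2 cells. BYSL, a pre-40S assembly factor, had the highest log2 ratio of the 13, 0.11. It was listed at 19.01, 20.02 and 22.96 FPKM in the Mut4 columns and at 17.7, 23.5 and 15.8 FPKM in the ZHX2 columns, which overlapped.

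Processome and pre-40S genes outside the set were also mostly below the median of all genes. Of 45 listed, 44 were measured, and 35 of these lay below it, with a median log2 ratio of −0.15. At 1.2-fold, 9 (20.5%) were lower in Mut4 cells, against 13.0% of all genes, and 1 (2.27%) was higher, against 16.4%. UTP25, a processome factor, was 1.44-fold lower (3.33 against 5.24 FPKM), and NOL6, another, 1.28-fold lower. At the other end IMP3, a U3 snoRNP protein, was 1.22-fold higher (29.02 against 23.7 FPKM) and TBL3 1.17-fold higher.

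Large subunit factors had a median log2 ratio of −0.16, with 9 of 11 below the median of all genes and 3 lower by at least 1.2-fold in Mut4 cells, against 13.0% of all genes. These counts take the PPAN record alone. With PPAN summed with its readthrough they were 8 and 2, and the median was −0.13. Without ZHX2 column 2 the median was −0.0012. The PeBoW complex, which matures 28S and 5.8S rRNA, was divided. PES1 and WDR12 had log2 ratios of −0.13 and −0.16, and BOP1 had 0.14, at 25.2 FPKM in Mut4 against 22.9 FPKM in ZHX2 cells. BOP1 was 1.66 times PES1 in Mut4 and 1.37 times in ZHX2 cells, while WDR12 was 0.472 and 0.489 times PES1. RRS1, which helps bring the 5S ribonucleoprotein into the pre-60S particle, had 14.3, 15.03 and 17.2 FPKM in Mut4 and 19.05, 25.4 and 17.1 FPKM in ZHX2. It was 1.30-fold lower, with the highest Mut4 column just above the lowest ZHX2 column. GNL3 (nucleostemin), a nucleolar GTPase, was 1.21-fold lower, at 36.9 against 44.96 FPKM. NOP2, a methyltransferase of 28S rRNA, and NIP7, a pre-60S factor, had log2 ratios of −0.21 and −0.20, and NOP16, a nucleolar pre-60S protein, −0.12. NIP7 and NOP16 overlap COG8 and HIGD2A on the opposite strand, and among small subunit genes NOP14 and TSR1 overlap NOP14-AS1 and SRR.

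The paralogs RRP1 and RRP1B, nucleolar proteins that lie near each other on chromosome 21, were on different sides. RRP1B was listed at 35.1, 36.9 and 42.3 FPKM in the Mut4 columns and at 31.5, 42.1 and 28.3 FPKM in the ZHX2 columns. RRP1 had means of 16.6 and 17.1 FPKM in Mut4 and ZHX2 cells. The log2 ratios were 0.16 and −0.04, and the RRP1B columns overlapped. RRP1B was 2.29 times RRP1 in Mut4 and 1.99 times in ZHX2 cells.

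PPAN, a pre-60S assembly factor, had the lowest log2 ratio of the 41 genes, −0.50, but its direction depended on how a shared locus was recorded. PPAN (chromosome 19, 10106289 to 10111634, GRCh38) was listed at 12.7, 13.3 and 15.3 FPKM in the Mut4 columns and at 18.5, 24.7 and 16.6 FPKM in the ZHX2 columns. These columns did not overlap, and PPAN taken alone was 1.42-fold lower in Mut4 cells. The readthrough record PPAN-P2RY11, which has 1447 exon bases in common with PPAN, was listed at 9.27, 9.76 and 11.2 FPKM in the Mut4 columns and at 0 in all 3 ZHX2 columns. The sum of the 2 records was 23.8 FPKM in Mut4 against 19.95 FPKM in ZHX2 cells, 1.19-fold higher in Mut4. P2RY11, the receptor gene at the far end of the readthrough, stood at 3.07 and 3.51 FPKM. With PPAN left out, the median log2 ratio of the remaining 40 genes was −0.15. Since reads of the records cannot be divided with certainty, no direction is given for PPAN.

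**Figure D2:**
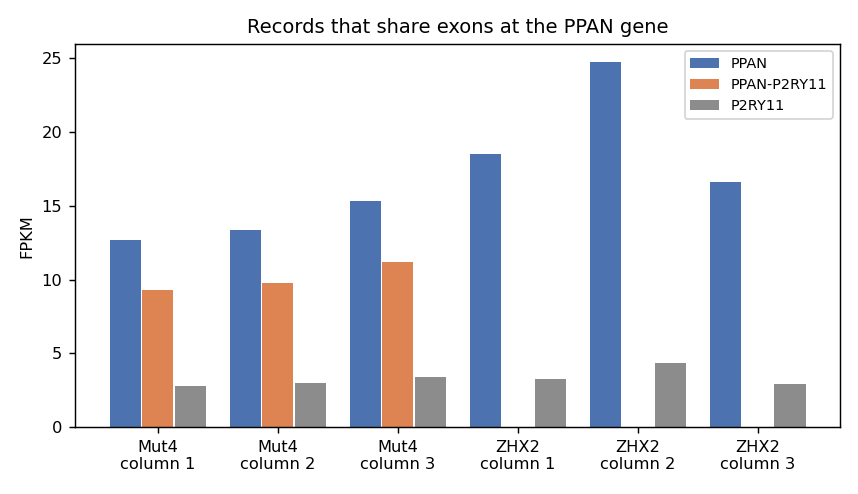
FPKM of PPAN, the readthrough PPAN-P2RY11 and P2RY11 (bars) in each of the 6 deposited columns. The readthrough stands at 9.27 to 11.2 FPKM in Mut4 cells and is listed at 0 in every ZHX2 column, where PPAN is listed higher.

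Large subunit assembly genes outside the set had a median log2 ratio of −0.08 over 44 measured of 44 listed, with 31 below the median of all genes. At 1.2-fold, 9 (20.5%) were lower in Mut4 cells, against 13.0% of all genes, and 3 (6.82%) were higher, against 16.4%. RSL24D1, a pre-60S protein, was 1.32-fold lower (37.9 against 50.2 FPKM), and ZNF622, whose yeast counterpart acts in late 60S maturation, 1.31-fold lower. LAS1L, which takes part in cutting the second internal spacer, and DDX54, an RNA helicase, were 1.25-fold and 1.24-fold higher.

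The 5 abundant nucleolar proteins without a single subunit assignment differed little. NPM1 (nucleophosmin), a nucleolar scaffold and chaperone, was listed at 95.5, 100.5 and 115.3 FPKM in the Mut4 columns and at 109.8, 146.5 and 98.6 FPKM in the ZHX2 columns. MYBBP1A, a MYB-binding nucleolar protein, had 20.5, 21.6 and 24.7 FPKM in Mut4 and 20.3, 27.1 and 18.3 FPKM in ZHX2. The columns of both overlapped, and the log2 ratios, −0.19 and 0.02, were the lowest and the highest of the 5. NPM1 has many processed pseudogenes, of which the table lists 21, and NPM1P27 stood at 28.3 FPKM in Mut4 against 27.3 FPKM in ZHX2 cells. With all of them added to NPM1 the log2 ratio was −0.13. LYAR, a nucleolar zinc finger protein, and NOLC1, which chaperones snoRNPs, had log2 ratios of −0.17 and −0.12. NCL (nucleolin), which binds nascent rRNA, stood at 78.7 FPKM in Mut4 against 80.3 FPKM in ZHX2 cells.

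**Figure D3:**
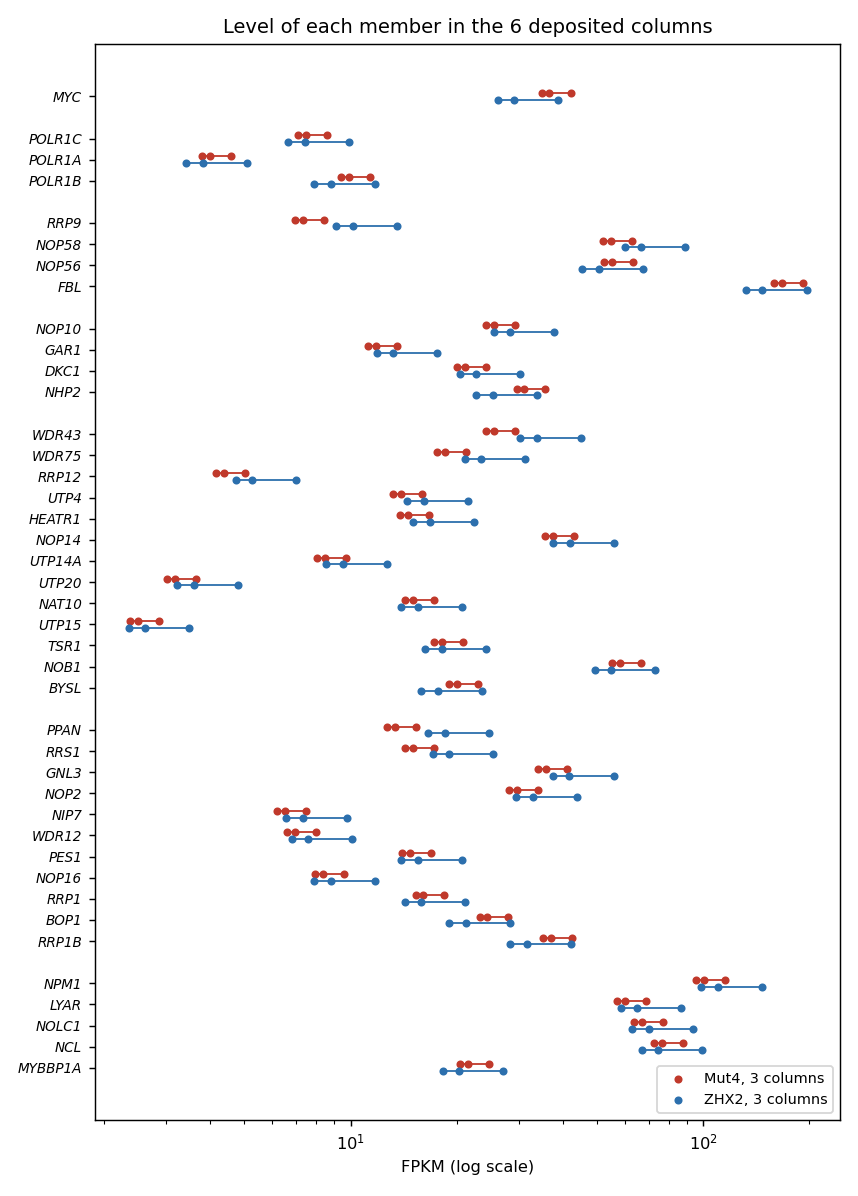
FPKM (log scale) of each of the 41 genes in the 6 deposited columns, with the 3 Mut4 columns (red) and the 3 ZHX2 columns (blue) joined by lines. The columns do not overlap for PPAN (its own record alone), RRP9 and WDR43, and overlap for the other 38 genes.

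In level, the set was well above the average gene. Of the 41 genes, 37 were above the median measured gene and 16 were in the top 10% of levels. Mean FPKM ran from 2.58 (UTP15) to 171.99 (FBL) in Mut4 and from 2.82 (UTP15) to 158.5 (FBL) in ZHX2 cells. FBL, NPM1, NCL and NOLC1 had the highest levels in both groups, in the same order in Mut4 and ZHX2 cells. Neighbours in that order cannot be compared with a replicate error, since each group is 1 sample. Level and log2 ratio were nearly unrelated across the 41 genes (Spearman rho 0.16, Pearson r 0.17, as a description across genes of the same 2 profiles). The columns did not overlap for RRP9, WDR43 and the PPAN record alone, each listed lower in Mut4 cells (3 of 41, 7.32%, against 8.86% of all genes). With the PPAN records summed, 2 of 41 remained (4.88%). For 0 genes did the columns lie apart with Mut4 higher, against 11% of all genes.

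Several members carry snoRNA genes on their own strand, by GENCODE v29. These 8 hosts are DKC1, GNL3, NCL, NOP56, NOP58, PPAN, TSR1 and WDR43. NOP56 holds 5 named snoRNAs, among them SNORD57 and SNORD86, and WDR43, NOP58, GNL3 and NCL hold 3 each. With PPAN summed with its readthrough, the hosts had a median log2 ratio of −0.11, with 6 of 8 below the median of all genes. With the PPAN record alone these were −0.22 and 7 of 8. The 33 members hosting none had −0.13, with 26 below it.

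Genes next to the pathway were also looked at. The assembly and modification factors of snoRNPs and rRNA had a median log2 ratio of 0.01 (15 of 15 measured, 8 below the median of all genes). ZNHIT6, which assembles box C/D snoRNPs, was 1.32-fold lower in Mut4 cells, and NUFIP1, of the same process, had a log2 ratio of −0.26. RUVBL2, an ATPase of the assembly machinery, was 1.27-fold higher and TRMT112, a methyltransferase partner, 1.17-fold higher. The RNA exosome, which trims the 3′ end of 5.8S rRNA, had a median of 0.02 over 14 genes, with EXOSC6 and EXOSC5 lowest (−0.35 and −0.25) and MPHOSPH6 and EXOSC3 highest (0.39 and 0.28).

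Other known MYC targets were spread evenly about the median of all genes. Of 32 listed, 31 were measured, with a median log2 ratio of 0.01 and 16 below the median of all genes. At 1.2-fold, 3 (9.68%) were lower in Mut4 cells, against 13.0% of all genes, and 2 (6.45%) were higher, against 16.4%. TERT, the telomerase reverse transcriptase, and RIOX2, a nucleolar hydroxylase, were 1.34-fold and 1.26-fold lower. CDCA7, a chromatin factor, was 1.35-fold higher (68.5 against 50.6 FPKM) and RANBP1, of nuclear transport, had a log2 ratio of 0.27. MRTO4 counts in this list and among the large subunit genes.

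Ribosomal proteins, which rRNA is packed with in the ribosome, stood on different sides for the cytosolic and the mitochondrial ribosome. Cytosolic ribosomal proteins had a median log2 ratio of −0.18, with 78 of 84 below the median of all genes. Of the 84, 22 (26.2%) were lower by at least 1.2-fold in Mut4 cells, against 13.0% of all genes. Mitochondrial ribosomal proteins had a median of 0.11, with 22 of 78 below the median of all genes. No test of these differences could be made with 1 sample a group.

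**Figure D4:**
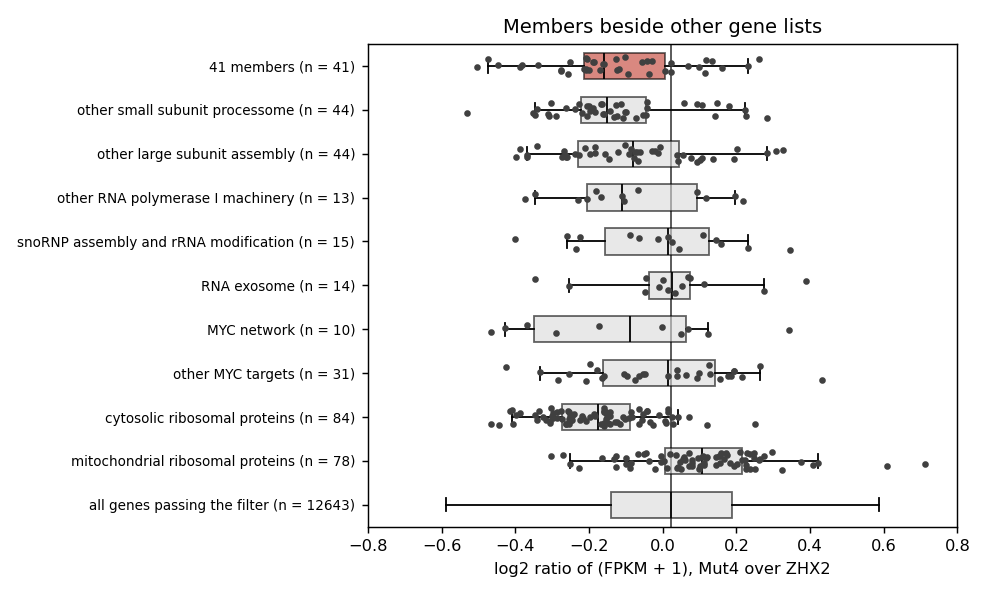
Log2 ratio of (FPKM + 1), Mut4 over ZHX2 cells, for the 41 members and for other gene lists (points are genes; boxes give the quartiles and median, whiskers the central 95%). The members and the cytosolic ribosomal proteins lie mostly left of the median of all genes (vertical line), the mitochondrial ribosomal proteins mostly right of it.

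The sign of a log2 ratio near 0 depended on which columns were averaged, because the columns differ by constants. Leaving out ZHX2 column 2 moved the median of all genes to 0.17, that of the 41 genes to 0.02 and MYC to 0.44. Leaving out ZHX2 column 3 moved them to −0.07, −0.27 and 0.15. Leaving out a column multiplies a whole profile by 1 constant, so the place of the 41 genes relative to all genes is nearly fixed by construction and its steadiness is no sign of stability.

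**Figure D5:**
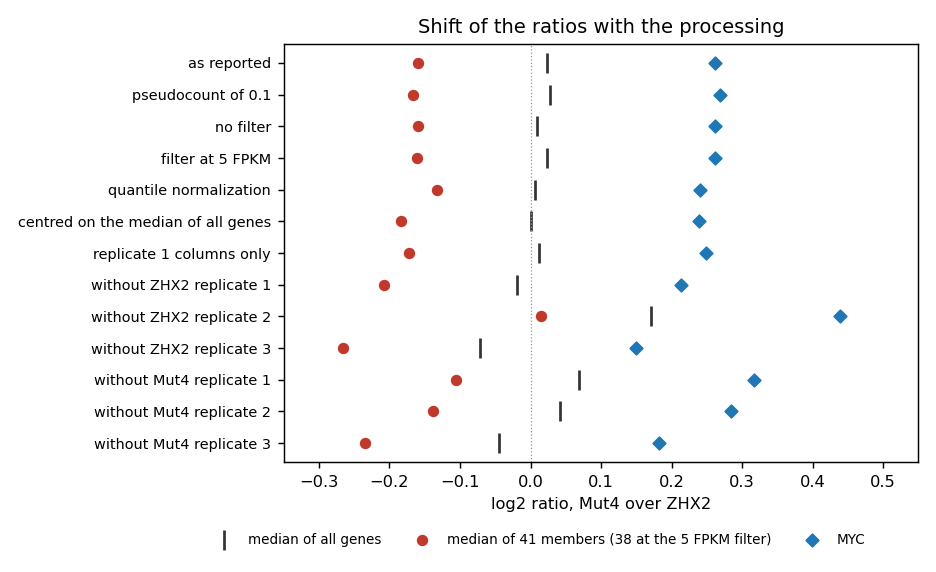
Log2 ratio (Mut4 over ZHX2) of MYC (diamonds), the median of the members (circles) and the median of all genes (bars) under each processing setting. Leaving out a column shifts all 3 together, as it multiplies a whole profile by 1 constant.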

How the data were processed

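Poly(A) RNA from DB cells was sequenced in libraries with a dUTP second strand, per the labels' protocols. Tools named in the submitters' processing notes are edgeR, StringTie, HISAT2 and fastp, with build GRCh38; settings are not given in the sources used here. The deposited table gives FPKM per library, plus the authors' linear ratio, its log2 value, p-value and q-value for each gene, per the file headers. That ratio is ZHX2 column 1 over Mut4 column 1, and the authors' values serve only to describe their table.

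Here the mean of 3 columns per group was used. Genes needed 1 FPKM in 3 of 6 columns; 3 rows with contradictory values (ATG5, ACSL1, SLC7A11) were left out, leaving 12643. The log2 ratio used a pseudocount of 1, which understates folds of low genes. A planned limma fit was dropped because the columns of a group are 1 sample. Members, gene lists and folds (1.5 and 1.2) were chosen with earlier results of these data known. Genes named were all members, and of each other list the 2 lowest and 2 highest ratios; MXD1, MXI1, MYCN, SNORD57, SNORD86 and the within-profile pairs were chosen after their values were seen. Coordinates are from GENCODE v29. Python 3.11.15, numpy 2.4.6, pandas 2.3.3, scipy 1.17.1 and matplotlib 3.10.9 were used, and the steps were tested on simulated data.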

Additional observations from a re-analysis of the deposited data

How the results depend on the processing

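No paired analysis was possible because each group holds 1 independent sample and no difference is tested. Leaving out 1 column at a time gave these ranges: MYC 0.15 to 0.44; the median of the 41 genes −0.27 to 0.015; genes below 0, 19 to 35; genes 1.5-fold lower, 0 to 1; genes 1.2-fold lower, 3 to 21; genes 1.2-fold higher, 0 to 6; genes 1.2-fold above the median of all genes, 0 to 1. Role medians ranged from −0.088 to 0.15 (RNA polymerase I), −0.25 to 0.044 (box C/D), −0.29 to −0.0081 (box H/ACA), −0.31 to −0.043 (small subunit), −0.27 to −0.0012 (large subunit) and −0.24 to 0.056 (other nucleolar proteins). Leaving out a column rescales a profile, so 16 of the 41 genes changed sign in at least 1 of these settings. Genes below the median of all genes numbered 30 to 33, and those 1.2-fold below it (a measure added after seeing the data) 8 to 11, over all 13 alternatives; these counts are nearly fixed by construction when a column is left out or the profiles are centred.

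At a pseudocount of 0.1, 1 gene was 1.2-fold higher. The RNA polymerase I median was −0.012 after quantile normalization, −0.017 after centring on the median of all genes and −0.0044 with column 1 only. PPAN was at 0.25 when summed with its readthrough, and counts of other results with that sum were added after seeing the data. The MYC network median was −0.29 with a filter at 5 FPKM, where 38 of the 41 genes passed. No other alternative (pseudocount, filters, quantile normalization, centring, column 1 only) moved a member by over 0.1, though quantile normalization changed the sign of 2 members and centring that of 3. Depth is unknown, so no counting error can be given.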
